A study of Mus musculus with 4 samples.

Results

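This account describes 10 genes of protein kinase A (PKA), the main kinase that cAMP activates, in primary mouse astrocytes. The genes were listed by name: those of the catalytic subunits (*Prkaca*, *Prkacb*), of the regulatory subunits (*Prkar1a*, *Prkar1b*, *Prkar2a*, *Prkar2b*), of the PKI inhibitors (*Pkia*, *Pkib*, *Pkig*) and of the anchoring protein AKAP12 (*Akap12*). Each gene was represented by its single-gene probe set with the highest mean signal, and 9 of the 10 had such a probe set among the 22180 genes measured. *Pkig* lies only on a probe set shared with another gene, so it has no value here. Mixed glia came from pups at postnatal day 1 to 3, wild-type (WT) or with systemic deletion of CRTC3 (CRTC3 KO), both on a C57BL/6J background. They were grown for 2 weeks and then shaken to remove microglia. The paper lists granulocyte-macrophage colony-stimulating factor in the medium of its glial cultures. The attached astrocytes received vehicle (0.1% DMSO) or 25 µM forskolin (FSK), an activator of adenylyl cyclase, for 2 h, and the 4 conditions were WT vehicle, WT FSK, CRTC3 KO vehicle and CRTC3 KO FSK. Each condition has 1 array, so no difference below has a replicate error or a p-value. The number and sex of the pups behind a culture, whether the arrays of a genotype came from the same culture, and whether vehicle was applied for the same time as FSK are not stated.

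In the absence of cAMP, PKA is a complex of a pair of catalytic and a pair of regulatory subunits and is inactive. cAMP binds the regulatory subunits and frees the catalytic subunits, which phosphorylate many proteins in the cytosol and, after entering the nucleus, the transcription factor CREB; PKI proteins block the free catalytic subunit and carry it out of the nucleus. A-kinase anchoring proteins (AKAPs) hold PKA, most of them through the type II regulatory subunits, near its substrates. CRTC3, the deleted gene product, is a coactivator of CREB that enters the nucleus when cAMP rises.

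The values are gene-level log2 signals, normalized over the 4 arrays by the authors, and every difference below is a difference of log2 signals. Signals of different probe sets are not on a common scale of abundance, so signal levels were compared only within a gene. Exceptions are the mark for dim genes and the summed signals of marker lists, in which bright probe sets weigh most. The median log2 signal over all gene probe sets was 5.81, and it serves here as the mark below which a gene is called dim. The deletion was visible in *Crtc3* itself, whose signal in CRTC3 KO minus that in WT was -2.83 (vehicle) and -2.65 (FSK). All 11 cAMP target genes listed as a check of FSK, such as *Fos* and *Sik1*, were higher with FSK in each genotype. Of all genes, 49.6% were higher in WT and 48.2% in CRTC3 KO. The median response of the 11 was 0.33 for WT and 0.34 for CRTC3 KO, against -0.00 and -0.01 over all genes. Their responses differed most between the genotypes for *Penk*, named for that value, at 1.84 in WT and 0.45 in CRTC3 KO. *Xist*, transcribed from the inactive X chromosome of female cells, gave 9.39 and 9.17 on the WT arrays and 4.66 and 4.49 on the CRTC3 KO arrays, so genotype and the sex makeup of the cultures cannot be told apart.

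The median PKA gene differed between the arrays about as much as the median gene. The range of a gene over the 4 arrays, its highest minus its lowest log2 signal, had a median of 0.27 over the 9 genes and of 0.28 over all genes. No PKA gene reached a 2-fold difference in the FSK response of WT (0.180% of all genes did, in either direction), in that of CRTC3 KO (0.0766%), between the genotypes with vehicle (0.595%) or with FSK (1.12%), or between the responses of the genotypes (0.636%). Shares this small leave little to read from 0 of 9 genes. The widest ranges belonged to *Prkar2b* (0.85), *Pkib* (0.48), *Prkar1b* (0.45) and *Akap12* (0.39), and the narrowest to *Prkacb* (0.06). For some genes below, the arrays separate fully by genotype or by treatment. The share of all genes that do so was not counted, so such a separation is only a description.

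**Figure D1:**
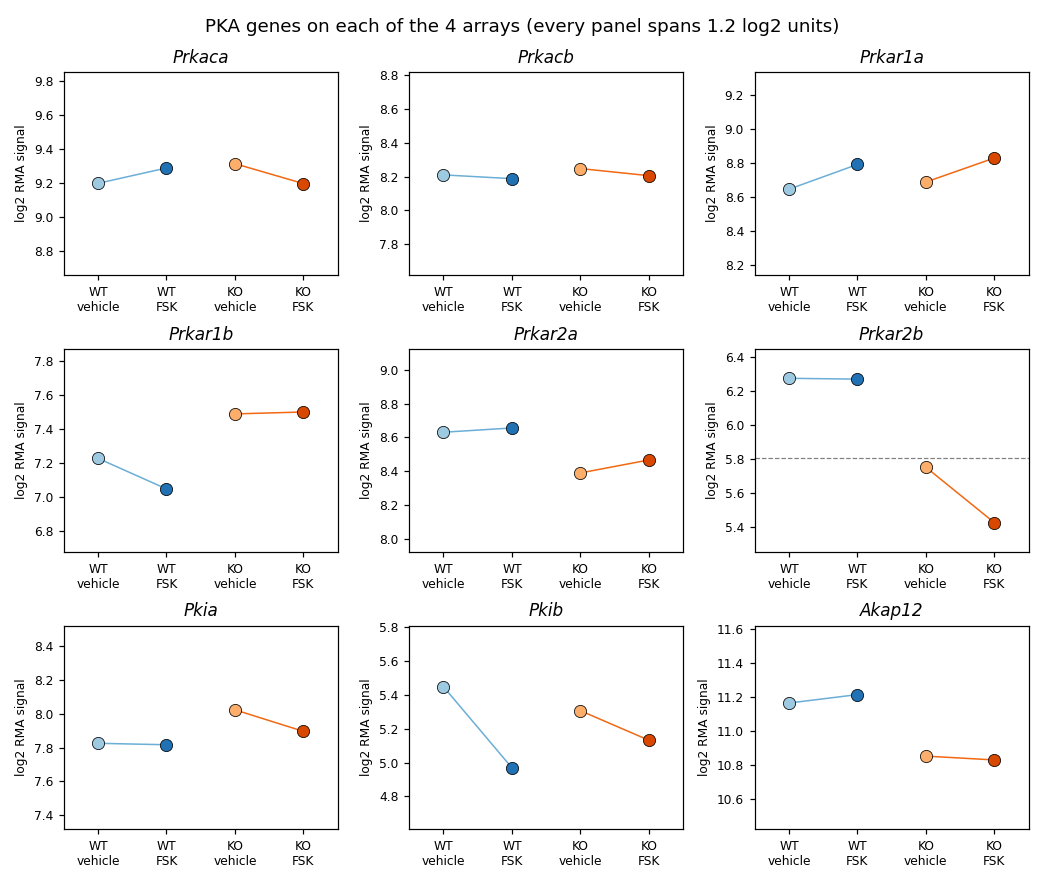
Log2 RMA signal of the 9 measured PKA genes on the arrays of WT vehicle, WT FSK, CRTC3 KO vehicle and CRTC3 KO FSK; points are single arrays, lines join the arrays of a genotype, every panel spans the same number of log2 units, and the dashed line is the median of all gene probe sets (5.81) where it falls in the panel. The points of *Prkar2b* and *Akap12* are lower in CRTC3 KO than in WT on both pairs of arrays, and those of *Prkar1b* are higher.

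The catalytic subunits were nearly level. *Prkaca*, which encodes the catalytic subunit Cα found in most tissues, had log2 signals of 9.20 (WT vehicle), 9.29 (WT FSK), 9.31 (CRTC3 KO vehicle) and 9.20 (CRTC3 KO FSK). It was thus higher with FSK in WT by 0.09 and lower with FSK in CRTC3 KO, by a difference of -0.12, and the spans of the genotypes overlap. A second, dim probe set of *Prkaca* gave responses of 0.19 and -0.11, in the same directions. *Prkacb*, which encodes the catalytic subunit Cβ, common in the brain, had log2 signals of 8.21 (WT vehicle), 8.19 (WT FSK), 8.25 (CRTC3 KO vehicle) and 8.21 (CRTC3 KO FSK). Its responses were -0.02 and -0.04, and 93.5% of all genes differed more between the genotypes with FSK than its 0.02.

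Among the type I regulatory subunits, *Prkar1a* was a little higher with FSK in both genotypes. *Prkar1a* encodes RIα, the regulatory subunit that is present in most cells and restrains the catalytic subunits there. Its log2 signals were 8.65 (WT vehicle), 8.79 (WT FSK), 8.69 (CRTC3 KO vehicle) and 8.83 (CRTC3 KO FSK), so both FSK arrays lay above both vehicle arrays. The WT response was 0.15 and the CRTC3 KO response 0.14, a gap of 0.00. They were the highest responses among the 9 genes in both genotypes, yet they stood above those of 78.9% of all genes for WT and 81.8% for CRTC3 KO, inside the middle 95%. The genotypes differed by 0.04 with vehicle and 0.04 with FSK.

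CREB binds the cAMP response element (CRE), whose full form is the palindrome TGACGTCA and whose 5-base core is TGACG, or CGTCA on the other strand. FSK is known to act on many genes through CREB, so the RefSeq promoter windows of the genes (GRCm38.p6, 250 bases before to 50 after each transcript start) were searched for it on both strands. The table holds 24 windows, some overlapping, of 8 of the 10 genes; *Pkia* and *Akap12* have no entry. The full site was found in *Prkar1a* alone, in 2 overlapping windows that hold the same copy, against 1.79% of all 32851 windows, or 2.03% of genes. Counting the core or the full site, 8 of the 24 windows had a match (33.3%, against 20.8% of all windows). By gene these were 6 of 8 (23.0% of all genes), but the members have more windows per gene than the 32851 windows of 27025 genes in the table, and *Prkar1a* alone has 6. *Prkar2b* and *Pkib* had no match. The sites of the subunit genes are printed in the direction of the gene, 30 bases each, with the CRE or its core in capitals, to show how the *Prkar1a* site differs from the cores of the others. Coordinates are those of the 30 printed bases, and distances are those of the first capital. The *Prkar1a* site lies on the plus strand at chr11:109650889-109650918, and begins 49 bases upstream of a transcript start and 39 bases into another transcript. *Prkar1a* has 2 further cores, and *Pkig* has 1, which are not printed. *Prkaca* has cores that begin 120 and 6 bases upstream of its start, at chr8:83972846-83972875 and chr8:83972960-83972989 on the plus strand. The cores of *Prkacb* at chr3:146813031-146813060 and *Prkar1b* at chr5:139150033-139150062, both on the minus strand, begin 102 and 49 bases upstream. That of *Prkar2a* at chr9:108692127-108692156 on the plus strand begins 4 bases upstream.
Prkar1a, full site: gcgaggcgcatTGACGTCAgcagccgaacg
Prkaca, upstream core: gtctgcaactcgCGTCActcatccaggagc
Prkaca, core at the start: gggctgcgggggCGTCAcggacagaggact
Prkacb, core: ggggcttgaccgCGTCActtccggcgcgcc
Prkar1b, core: tagagggcggagTGACGggcaggaggacga
Prkar2a, core: cgcggccgcgtgCGTCAcaacccgggcgcc
A match describes these letters and is not evidence that CREB binds there.

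*Prkar1b*, the other type I gene, encodes RIβ, a regulatory subunit best known from neurons. Its log2 signals were 7.23 (WT vehicle), 7.05 (WT FSK), 7.49 (CRTC3 KO vehicle) and 7.50 (CRTC3 KO FSK). Both CRTC3 KO arrays lay above both WT arrays, by 0.26 with vehicle and by 0.45, or 1.37-fold, with FSK. Of all genes, 95.3% had a lower difference with FSK, so the value is high but inside the middle 95% of genes, which ended at 0.55. The response to FSK was -0.18 in WT and 0.01 in CRTC3 KO, and most of the wider genotype gap with FSK came from the lower WT FSK array.

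The type II regulatory subunits, which most AKAPs bind, were both lower in CRTC3 KO. *Prkar2b* encodes RIIβ, the form that prevails in brain and adipose tissue. It had log2 signals of 6.28 (WT vehicle), 6.27 (WT FSK), 5.75 (CRTC3 KO vehicle) and 5.43 (CRTC3 KO FSK). CRTC3 KO minus WT came to -0.52 for the vehicle arrays and -0.85 for the FSK arrays, which put CRTC3 KO at 0.695 and 0.556 times the WT signal. Only 2.66% of all genes with vehicle and 1.30% with FSK had a lower difference, and *Prkar2b* was the single PKA gene that with FSK was lower in CRTC3 KO by 1.5-fold or more (3.75% of all genes were). Its response to FSK was -0.00 in WT and -0.33 in CRTC3 KO, where 4.95% of genes had a lower response. Both CRTC3 KO arrays lie under the median signal of 5.81, and with values below it raised to it the response in CRTC3 KO was 0 and the genotype difference -0.47 with vehicle and -0.46 with FSK.

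*Prkar2a* encodes RIIα, the type II subunit of most tissues. Its log2 signals were 8.63 (WT vehicle), 8.66 (WT FSK), 8.39 (CRTC3 KO vehicle) and 8.47 (CRTC3 KO FSK). The genotype differences of -0.24 with vehicle and -0.19 with FSK were ordinary for these arrays, as 26.7% and 45.1% of all genes differed more in either direction. The responses to FSK were 0.03 and 0.08.

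Of the PKI genes, *Pkib* had the response to FSK of the greatest size among the 9 genes in WT, and it was dim. *Pkib* encodes PKIβ and *Pkia* PKIα, small inhibitors that occupy the substrate site of the catalytic subunit. The log2 signals of *Pkib* were 5.45 (WT vehicle), 4.97 (WT FSK), 5.31 (CRTC3 KO vehicle) and 5.13 (CRTC3 KO FSK), all under the median of 5.81. Both FSK arrays lay below both vehicle arrays, with responses of -0.48 in WT, or 0.718-fold, and -0.17 in CRTC3 KO. In WT, 1.71% of all genes had a lower response than *Pkib*. With dim values raised to the median signal its response was 0. *Pkia* had log2 signals of 7.83 (WT vehicle), 7.82 (WT FSK), 8.02 (CRTC3 KO vehicle) and 7.90 (CRTC3 KO FSK). Its responses to FSK were -0.01 for WT and -0.13 for CRTC3 KO, and the genotype difference of 0.20 with vehicle narrowed to 0.08 with FSK.

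*Akap12* encodes a large scaffold, also known as gravin, that binds PKA, protein kinase C and the β2-adrenergic receptor at the membrane. Its log2 signals were 11.17 (WT vehicle), 11.21 (WT FSK), 10.85 (CRTC3 KO vehicle) and 10.83 (CRTC3 KO FSK). The responses to FSK of 0.05 and -0.02 were small, while CRTC3 KO minus WT was -0.31 with vehicle and -0.39 with FSK. CRTC3 KO thus had 0.805 and 0.766 times the WT signal. Of all genes, 8.50% had a lower difference with vehicle and 9.02% with FSK.

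A lower limit, a log2 difference of at least 0.3219 in size, was then used to count genes with smaller differences. By this count 1 of the 9 genes (11.1%) differed with FSK in each genotype, a share near that of all genes. In WT, *Pkib* was the 1 gene of 9 that was lower (5.30% of all genes were) and 0 were higher (6.67%). In CRTC3 KO, *Prkar2b* was the 1 gene that was lower (5.10%) and 0 were higher (4.06%). The 9 genes had a median response of -0.00 (WT) and -0.04 (CRTC3 KO), against -0.00 and -0.01 over all genes. Above 0 were 4 of the 9 in WT (49.6% of all genes) and 3 in CRTC3 KO (48.2%). Between the genotypes, 0 of the 9 responses differed by this much (22.0% of all genes in either direction). *Prkar2b*, whose WT response exceeded its CRTC3 KO response by 0.3218, lay just under the limit, and *Pkib* followed with -0.30.

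**Figure D2:**
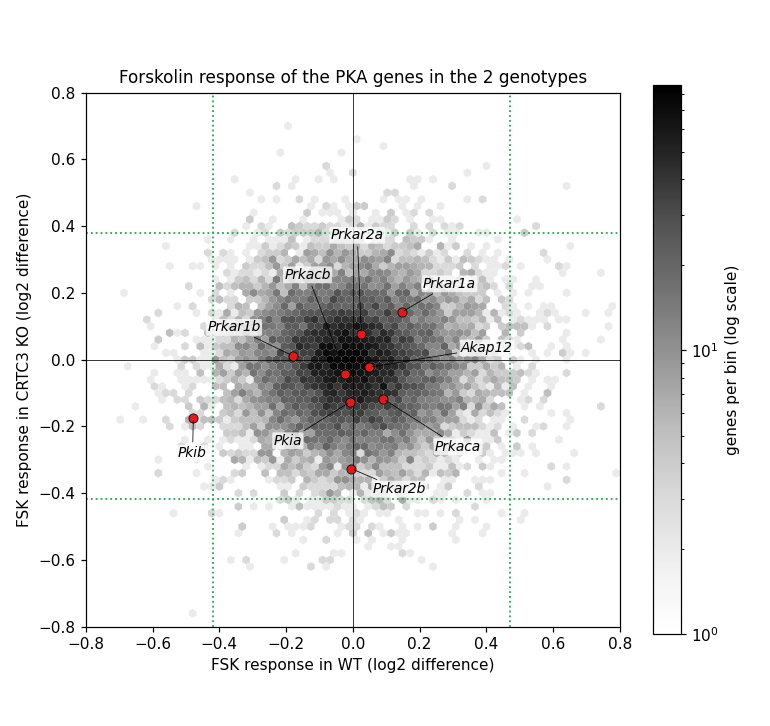
Log2 response to FSK in WT (horizontal axis) and in CRTC3 KO (vertical axis); red points are the 9 PKA genes, grey hexagons count all genes per bin on a log scale (genes beyond the axes are not drawn), and green dotted lines bound the middle 95% of genes on each axis. *Pkib*, at -0.48 and -0.17, is the single PKA gene outside the band of the WT axis, and none is outside that of the CRTC3 KO axis.

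Between the genotypes, the same limit gave *Prkar2b* alone with vehicle, lower in CRTC3 KO (8.07% of all genes), and 0 higher (7.99%). With FSK, *Prkar2b* and *Akap12* were lower, 2 of 9 genes (12.2%), and *Prkar1b* was higher, 1 of 9 (10.6%). The median difference of the 9 genes was 0.04 with vehicle and 0.02 with FSK, against 0.01 and -0.00 over all genes. The members lay on both sides of these medians. Below 0 under each treatment were both type II subunits and *Akap12*. Above 0 under each were both type I subunits, *Prkacb* and *Pkia*. Of these, *Prkar1a* was at only 0.04 and 0.04, and *Prkacb* at only 0.04 and 0.02. *Prkaca* and *Pkib* changed sign between the treatments. The share of all genes that keep their sign under both treatments was not counted, so this sorting is only a description. The vehicle and FSK differences use separate arrays, but the arrays of a genotype may share a culture and are not replicates.

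**Figure D3:**
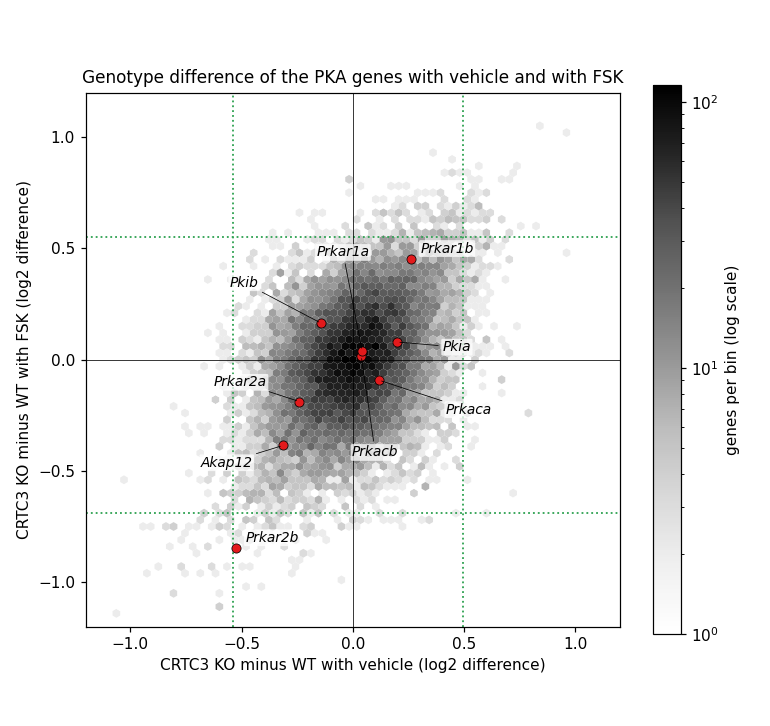
Log2 difference between CRTC3 KO and WT with vehicle (horizontal axis) and with FSK (vertical axis); red points are the 9 PKA genes, grey hexagons count all genes per bin on a log scale (genes beyond the axes are not drawn), and green dotted lines bound the middle 95% of genes on each axis. *Prkar2b*, at -0.52 and -0.85, is the single PKA gene outside the band of the FSK axis, and *Akap12* (-0.31 and -0.39) and *Prkar1b* (0.26 and 0.45) lie inside both bands.

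Cell type markers also differed between the genotypes on these arrays. For comparison, 51.7% of all genes were higher in CRTC3 KO with vehicle and 49.8% with FSK. Of 12 markers of fibroblasts and mural cells, 11 had a lower signal in CRTC3 KO under each treatment, with medians of -0.73 and -0.78. Their summed signal on the linear scale was 18160 and 18455 on the WT arrays and 9813 and 8507 on the CRTC3 KO arrays. *Lum* and *Rgs5* were dim on every array, and *Rgs5* was the marker that was higher. All 12 astrocyte markers were higher in CRTC3 KO under each treatment, with medians of 0.53 and 0.55 and a summed signal of 9362 and 9505 on the WT arrays against 13181 and 13928 on the CRTC3 KO arrays. *S100b* was dim and the other 11 markers, *Gfap* among them, were not. All 11 measured microglia and macrophage markers reached the median signal, from 6.27 (*Aif1*) to 11.23 (*C1qb*) on the WT vehicle array. The attached cultures are thus not shown to be free of these cells. The summed signal in CRTC3 KO was 1.08 and 1.09 times that in WT for the microglia and macrophage markers, 1.14 and 1.14 times for neuron markers (whose median difference was 0.00 under both treatments, with 3 and 4 of 9 lower), 1.03 and 1.00 times for markers of oligodendrocytes and precursors, and 0.936 and 0.802 times for endothelial markers. Of these lists, *Snap25*, *Syt1*, *Slc17a7* and *Nefl* of the neurons, *Mbp*, *Mog* and *Mag* of the oligodendrocytes, and *Cldn5*, *Tie1* and *Tek* of the endothelium were dim on every array. No marker is at 0, because an array gives a background signal even for a transcript that is absent. Fewer cells of a type and less RNA per cell cannot be told apart in such bulk samples. The part of the cell types marked by these lists in the differences of *Prkar2b*, *Prkar1b*, *Prkar2a* and *Akap12* was not tested.

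The other anchoring proteins lay on both sides of 0 between the genotypes. Of 28 further AKAP genes, among them *Map2*, which is also a neuron marker here, 24 reached the median signal, and none was 2-fold apart in any comparison. The median of CRTC3 KO minus WT over them was 0.02 (vehicle) and 0.09 (FSK). Above 0 lay 14 and 19 of the 28, against 51.7% and 49.8% of all genes. *Akap8l*, which encodes a nuclear matrix protein related to AKAP8, was the 1 gene of the anchoring protein, PKA regulator and cAMP receptor lists that reached both 1.5-fold and the median signal. Its log2 signals were 6.94 (WT vehicle), 6.73 (WT FSK), 7.26 (CRTC3 KO vehicle) and 7.40 (CRTC3 KO FSK), which gave genotype differences of 0.31 with vehicle and 0.67 with FSK. With vehicle, 2 of the 28 were higher in CRTC3 KO by at least the log2 limit of 0.3219 (7.99% of all genes), *Akap6* (0.52) and *Ezr* (0.36), and 1 was lower (8.07%), *Akap2* at -0.36, a greater difference than the -0.31 of *Akap12*. With FSK, 5 of the 28 genes were higher in CRTC3 KO by at least as much (10.6% of all genes) and 0 were lower (12.2%). Besides *Akap8l* these were *Akap6*, the anchor of PKA at the nuclear envelope (0.50), *Ezr*, which encodes the membrane-cytoskeleton linker ezrin (0.40), *Akap11* (0.39), and *Gpr161*, a receptor gene of the cilium (0.34). Apart from *Akap8l* these genes are named because of their values. In WT, 2 of the 28, *Akap10* (-0.42) and *Gpr161* (-0.41), were lower with FSK past this limit (5.30% of all genes), and 0 were higher (6.67%). In CRTC3 KO 0 were past it in either direction. Over the 28 genes the median response was -0.03 (WT) and 0.02 (CRTC3 KO).

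Other genes that act around PKA or bind cAMP were described in the same way. Of 8 genes that regulate PKA or serve beside it, 7 were measured, with a median response of 0.01 (WT) and -0.01 (CRTC3 KO). The largest single difference among them was that of *Ppp1r1a*, which encodes a protein phosphatase inhibitor that PKA switches on. It had log2 signals of 7.16 (WT vehicle), 7.16 (WT FSK), 7.36 (CRTC3 KO vehicle) and 6.91 (CRTC3 KO FSK), a response of 0.01 against -0.45, and is named for that value. Of 12 genes for other cAMP receptors, such as the exchange factor gene *Rapgef3* and the HCN and CNG channel genes, 10 were measured and 2 of them reached the median signal. Their median response was -0.10 for WT, where 3 of the 10 lay above 0 (49.6% of all genes), and -0.06 for CRTC3 KO. These values come mostly from dim genes. Of the 2 that reached the median signal, *Rapgef3* was higher in CRTC3 KO by 0.40 with vehicle and by 0.01 with FSK. The other, *Hcn2*, was higher by 0.15 with vehicle and by 0.56 with FSK. Its responses to FSK were -0.08 in WT and 0.33 in CRTC3 KO.

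**Figure D4:**
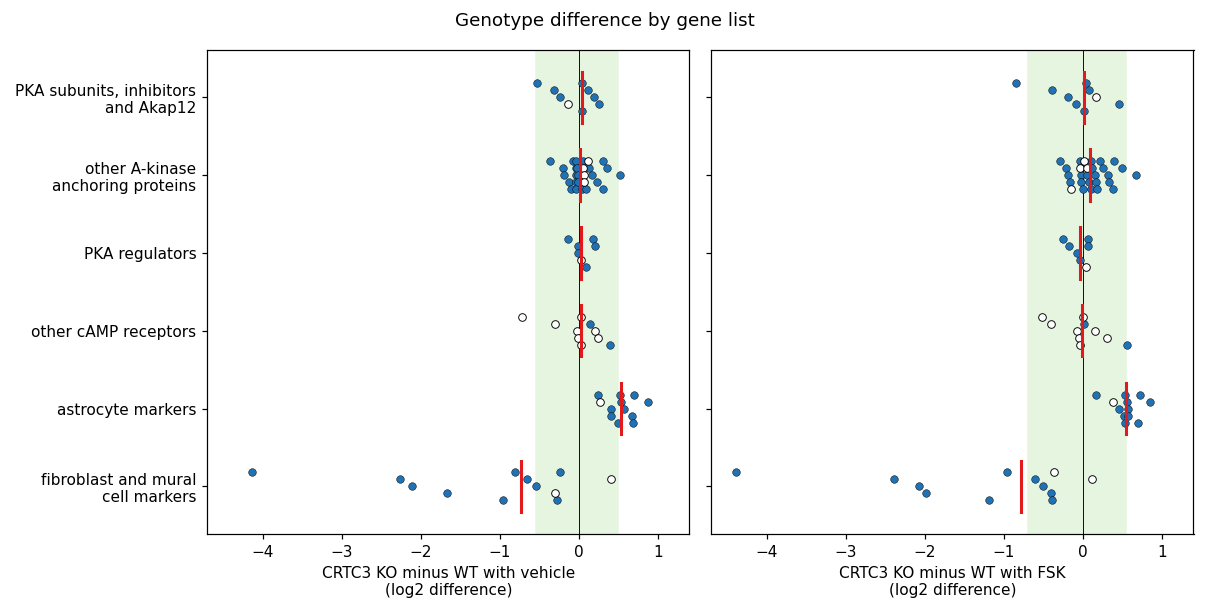
Log2 difference between CRTC3 KO and WT with vehicle (left) and with FSK (right) for the genes of 6 lists; filled points reach the median signal on at least 1 array, open points do not, vertical position within a row carries no value, red bars are the medians of the lists, and the green band holds the middle 95% of all genes. The 4 lists of the cAMP pathway centre near 0, the astrocyte markers at 0.53 and 0.55, and the fibroblast and mural cell markers at -0.73 and -0.78.

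The genes with the profile most like a PKA gene were sought for the 2 genes with the widest range, as the smallest Euclidean distance between log2 profiles over the 4 arrays after centring, among genes that reached the median signal. For *Prkar2b* these were *Scarf2* (distance 0.03), *Cd36* (0.07) and *Cdk6* (0.07). *Scarf2*, a scavenger receptor gene, differed between the genotypes by -0.55 with vehicle and -0.88 with FSK, close to the -0.52 and -0.85 of *Prkar2b*. For *Pkib* they were *Tnfrsf12a* (0.02), *Chic2* (0.03) and *Plekhm1* (0.04). *Tnfrsf12a*, the gene of the TWEAK receptor, had responses to FSK of -0.49 in WT and -0.18 in CRTC3 KO. Over 4 arrays and so many genes close profiles are common, and the likeness is only a description.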

How the data were processed

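RNA of the 4 cultures was hybridized by the authors to Affymetrix GeneChip mouse 2.0 ST arrays. The authors deposited gene-level log2 values, computed by RMA (background correction, quantile normalization, median polish) in Affymetrix Expression Console; its version, genome build and probe filters were not given in the sources used here. Low signals are compressed by RMA, precision is limited by the number of arrays, and no detection call was used. Of 41345 probe sets, 23521 have 1 gene symbol, 1820 several and 16004 none; probe sets with several named no gene, and 23328 of the 23521 carry a gene identifier found in RefSeq (GRCm38.p6).

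For each gene, differences of log2 values were computed for 5 comparisons (the FSK response in each genotype, CRTC3 KO minus WT under each treatment, and the difference between the responses, WT minus CRTC3 KO), as the methods compare arrays by fold-change. No test was made. Genes were counted at 2-fold, and at 1.5-fold or a log2 difference of 0.3219 where stated. The members and lists were chosen with earlier results of these data known. Named were all members, pathway genes at least 1.5-fold apart that reached the median signal, the 3 nearest profiles of 2 members, and genes said to be chosen for their values. *Akap2* also stands for the merged gene Pakap. Alternatives were other normalizations, a floor or filter at the median signal, averaging the probe sets of a gene, and other fold thresholds. The functions were tested on simulated data. Python 3.11.15, numpy 2.4.6, pandas 2.3.3 and matplotlib 3.10.9 were used.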

Additional observations from a re-analysis of the deposited data

Results flagged for a closer look

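Among the 9 PKA genes, 3 had responses to FSK of opposite direction in WT and CRTC3 KO. Their difference, WT minus CRTC3 KO, was 0.21 for *Prkaca*, -0.19 for *Prkar1b* and 0.0725 for *Akap12*. Each response comes from 1 pair of arrays, and the difference was not tested. Of all genes, 39.9%, 43.4% and 75.9% had a larger difference between the responses in either direction. The response lay above 0 for 49.6% of all genes in WT and 48.2% in CRTC3 KO. The share of all genes with opposite directions was not counted, so 3 of 9 is not read as a result about these genes.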

How the results depend on the processing

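No paired analysis was possible because the conditions, with 1 array each, share a single replicate number. The median log2 difference of the PKA genes moved by at most 0.05 under the 25 alternatives computed over the 5 comparisons. The count of genes at least 2-fold apart, 0 in each comparison, stayed 0 under every alternative but other fold thresholds: at a log2 difference of 0.3219 it was 1 for the response in WT, 1 for that in CRTC3 KO, 1 for the genotype difference with vehicle and 3 for that with FSK, where it was 1 at 1.5-fold.

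Of 220 values of single genes under the alternatives, 217 moved by less than the SD of the difference between the first 2 probe sets of a gene (0.26 to 0.40 over the comparisons, from 1082 genes), which measures disagreement within arrays and not between cultures. Many of the 220 could not move, so this count says little. The filter changes no value, averaging acts only on *Prkaca*, and the floor only on *Prkar2b* and *Pkib*. Quantile normalization moved values by at most 0.07 and median centring by at most 0.02. The 3 others arose from raising dim values to the median signal, which made the response of *Pkib* in WT 0, that of *Prkar2b* in CRTC3 KO 0, and the *Prkar2b* difference with FSK -0.46. The sign changed for 5 values. Of these, 4 were differences of *Prkar2b*, *Pkia* or *Prkacb* of at most 0.02 in size under another normalization. The fifth was the difference of *Prkar2b* between the responses, 0.32 as reported and -0.00 with dim values raised.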
